A study of Saccharomyces cerevisiae with 8 samples.

Results

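The question here is which transcripts of budding yeast (Saccharomyces cerevisiae) respond differently to salt when the gene HTZ1 is missing. For each gene the quantity reported is an interaction, the log2 salt response of the deletion strain minus the log2 salt response of wild type. A negative interaction means a smaller rise or a larger fall under salt in the deletion strain. All 8 arrays of the series enter it, in 4 groups of 2. The htz1D salt group is an htz1 deletion strain grown to exponential phase in YPD and then kept for 20 minutes in 0.4 M NaCl, and the htz1D no-salt group is the same strain left without NaCl. The WT salt and WT no-salt groups are the strain with an intact HTZ1, handled in those same ways. The labels give the strain as BY4147 throughout, the series' description states that each pair consists of biological replicates, and the sources used here do not say how many clones of the deletion strain were grown.

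HTZ1 encodes the histone variant H2A.Z of yeast, which the SWR1 complex places in nucleosomes beside promoters. High external salt activates the kinase Hog1, which turns on glycerol production, while the transcription factors Msn2 and Msn4 turn on a general stress programme of chaperones, antioxidant enzymes and reserve carbohydrate enzymes. In the same minutes cells lower the genes for building ribosomes, a large set of nucleolar assembly factors and RNA polymerase I and III subunits.

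Levels are log2 processed intensities relative to the 75th percentile of their own array, so a change in total RNA per cell is not measured. RNA of whole cultures was hybridised, so fewer cells expressing a gene and less RNA per cell cannot be told apart. Of the genes on the array 5394 were tested, and 4842 of these were well above background on all 8 arrays. The 2 arrays of each group had a Pearson r across genes between 0.987 and 0.993. All arrays lay on 1 slide, with htz1D in row 2 and WT in row 1, and with salt in columns 3 and 4 and no salt in columns 1 and 2. Row and column effects that add cancel in the interaction, while an effect of 1 particular row and column cannot be told apart from it. Row effects do not cancel in the strain differences, nor column effects in the salt responses, and they cannot be told apart from these. HTZ1 (YOL012C) was not well above background on any htz1D array, at −7.78 and −7.50 with salt and −7.26 and −6.92 without, and was bright on the WT arrays, at 1.09 and 0.98 with salt and 1.35 and 1.29 without.

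A difference between the strains in salt response was detected for few of the genes tested. By limma, 54 of 5394 genes (1.00%) had an interaction with adjusted p under 0.05, of which 6 were positive (0.111%) and 48 negative (0.890%). At an unadjusted p under 0.05 there were 653. The 54 interactions had a median size of 1.48 on the log2 scale and ranged in size from 0.91 to 2.95, the largest in RTC3, which was not well above background in WT without salt. Among those well above background on all 8 arrays the largest was 2.68, in HXK1. Of the 54, 52 also passed the salt comparison in both strains, which 3149 genes (58.4%) passed in htz1D and 3070 (56.9%) in WT.

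Most interactions were differences of degree. Salt gave a larger fall in htz1D for 26 of the 54 genes, a smaller rise for 19 and a larger rise for 4. In 3 genes (ATF1, GUP2 and YGR073C) the fitted salt responses had opposite directions, but GUP2 was not well above background in htz1D without salt and its rise there was at least 1.04-fold. PCL1 passed the salt comparison in WT and not in htz1D, and IRC19 in htz1D and not in WT.

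The number of calls changed when 1 array was left out. Each such fit leaves 1 group with 1 array and has less power. A lower number therefore does not show that calls rest on the array left out. Lost power does not account for the higher number without WT salt replicate 1, and its cause was not tested. Without htz1D salt replicate 1 or 2 the number was 4 or 14, and without htz1D no-salt replicate 1 or 2 it was 21 or 20. Without WT salt replicate 1 or 2 it was 102 or 16, and without WT no-salt replicate 1 or 2 it was 13 or 19. The 54 genes had the same sign in each of these 8 fits, and HXK1, TMA10, RTC3 and RRT14 passed in every one. In the authors' deposited values 19 genes passed, 6 positive and 13 negative, and after normexp background correction 1 gene, HXK1, passed.

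The interaction is also the strain difference with salt minus the strain difference without salt, so genes can be sorted by where the strains differed. With salt 1183 genes (21.9%) differed between htz1D and WT, 311 higher (5.77%) and 872 lower (16.2%) in htz1D. Without salt 738 genes (13.7%) differed, 397 higher (7.36%) and 341 lower (6.32%) in htz1D. The split depends on scaling: with each array centred on its median it was 613 higher and 504 lower with salt and 484 higher and 267 lower without, and with quantile scaling it was 424 higher and 564 lower with salt. Single arrays moved these counts too: with salt there were 83 higher and 374 lower without WT salt replicate 2, and 91 and 347 without htz1D salt replicate 1, or 106 and 391 without htz1D salt replicate 2. Without salt there were 168 higher and 103 lower without WT no-salt replicate 1, and 179 higher without WT no-salt replicate 2. The 2 comparisons share no array. Of the genes higher in htz1D, 189 were so in both conditions, 60.8% of those with salt and 47.6% of those without. Of the genes lower in htz1D, 242 were so in both, 27.8% of those with salt and 71% of those without.

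Of the 54 interaction genes, 23 differed between strains with salt and did not pass without it, and all 23 interactions were negative. A further 14 differed without salt and did not pass with it, 12 with a negative and 2 with a positive interaction. Both differences passed in 17 genes, in the same direction in 13 and in opposite directions in 4. A class rests on which tests passed, and a missed threshold does not show equal levels. When genes were sorted by size instead, so that one strain difference was at least 2 times the other in log2, 28 differed mainly after salt, 22 mainly at the start level and 4 lay between.

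**Figure D1:**
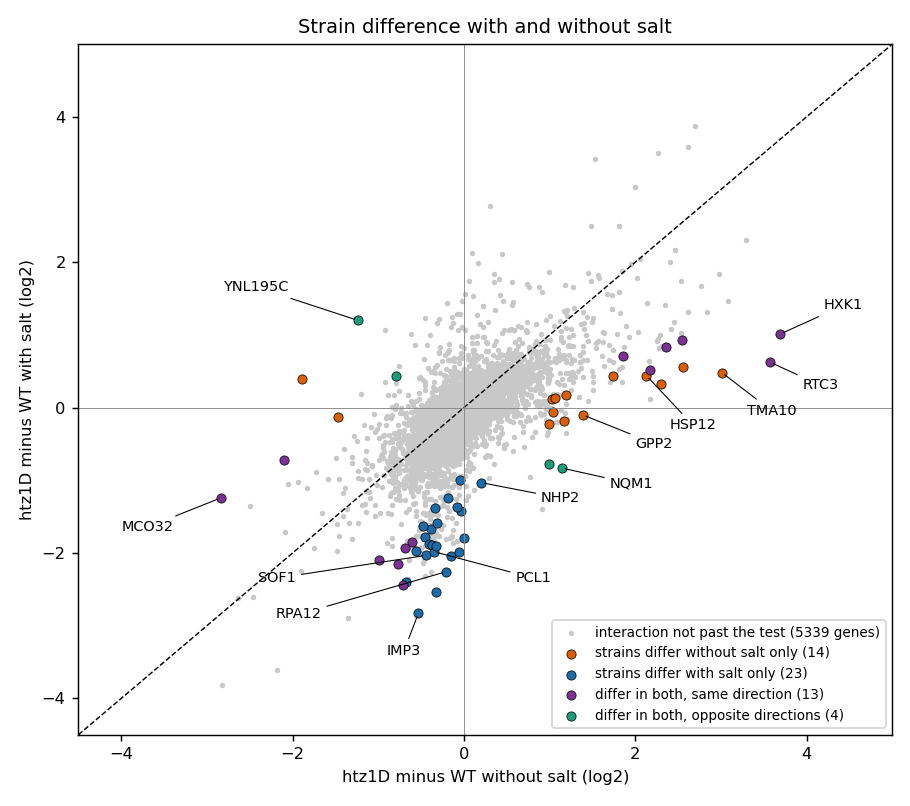
Each point is a gene, with htz1D minus WT in log2 without salt across and with salt up the page. The dashed line marks equal differences, points below it have a negative interaction, and HTZ1 is not drawn; the 23 genes that differ with salt only hang below the centre, and 12 of the 14 that differ without salt only lie to its right near 0 in height.

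Of the 14 genes that differed between strains without salt only, 5 are on a stress, carbohydrate or glycerol list (TMA10, HSP12, GPP2, PNC1 and GSY1). All 5 were higher in htz1D without salt, where 2 of the 14 were lower. Of the 5394 tested genes, 60 are on the general stress list and 38 on the Hog1-linked list. The trehalose and glycogen list holds 22 and the glycerol list 15, and some genes are on more than 1 list. Of the 13 that differed in one direction in both conditions, 6 are on such a list, among them HXK1 and GLK1. HXK1 (YFR053C), a hexokinase made when glucose is scarce, had the smallest adjusted p of all interactions. Its levels in htz1D were 4.53 and 4.77 with salt and 0.99 and 1.21 without, and in WT 3.59 and 3.69 with salt and −2.57 and −2.61 without. The WT no-salt arrays lay far below the rest, and the strains did not overlap in either condition. Salt raised HXK1 11.7-fold in htz1D and 75.2-fold in WT, an interaction of −2.68 (SE 0.19, adjusted p = 0.00633). HXK1 was 2.02-fold higher in htz1D with salt and 12.9-fold higher without, and both differences passed.

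TMA10 (YLR327C), a small stress-induced protein that associates with ribosomes, was at 4.07 and 3.81 in htz1D with salt, 0.98 and 0.86 in htz1D without, 3.60 and 3.32 in WT with salt and −1.99 and −2.19 in WT without. Again the WT no-salt arrays were by far the lowest. With salt the strain difference was 0.48 on the log2 scale and did not pass (adjusted p = 0.0613). The rise was 8.11-fold in htz1D and 46.8-fold in WT, an interaction of −2.53 (SE 0.22, adjusted p = 0.00705).

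HSP12 (YFL014W) encodes a small heat shock protein of the plasma membrane. Its levels were 5.11 and 4.83 in htz1D with salt, −1.09 and −0.79 in htz1D without, 4.70 and 4.36 in WT with salt and −3.16 and −2.97 in WT without. The strains were clearly separate before salt, by 4.37-fold, and came near each other after it. HSP12 rose 60.1-fold in htz1D and 194-fold in WT, an interaction of −1.69 (SE 0.25, adjusted p = 0.0368).

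Other enzymes of glucose phosphorylation followed HXK1. GLK1 (YCL040W), the glucokinase, was at 4.60 and 4.86 in htz1D with salt, 1.62 and 1.77 in htz1D without, 4.25 and 4.19 in WT with salt and −0.41 and −0.54 in WT without. Each htz1D array lay above both WT arrays of its condition, with the wider gap before salt, and the interaction was −1.65 (SE 0.19, adjusted p = 0.0141). EMI2 (YDR516C), a close relative of GLK1, was 1.09-fold higher in htz1D with salt and 2.08-fold higher without, with an interaction of −0.93 (SE 0.15, adjusted p = 0.0441). HXK2, the hexokinase of cells growing on glucose, was named after its values were seen. It lay between 5.09 and 5.36 on all arrays, and its interaction of −0.06 (SE 0.15) did not pass.

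Of 15 glycerol genes 1 had a negative interaction (GPP2) and 1 a positive one (GUP2), with a median of 0.09, and of 22 trehalose and glycogen genes 1 passed (GSY1). GPP2 (YER062C) encodes the phosphatase that completes glycerol synthesis under osmotic stress. It was at 5.43 and 5.14 in htz1D with salt, −0.11 and −0.16 in htz1D without, 5.50 and 5.27 in WT with salt and −1.52 and −1.53 in WT without. The strains overlapped after salt and stood 2.61-fold apart before it, and the interaction was −1.49 (SE 0.19, adjusted p = 0.0231). PNC1, the nicotinamidase that clears nicotinamide under stress, was 1.35-fold higher in htz1D with salt and 3.33-fold higher without (interaction −1.30, SE 0.21, adjusted p = 0.0441). GSY1, a glycogen synthase, differed 1.05-fold with salt, which did not pass, and was 2.06-fold higher in htz1D without (interaction −1.11, SE 0.18, adjusted p = 0.045).

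Among genes higher in htz1D in both conditions, YOR289W was 1.78-fold higher with salt and 5.13-fold higher without (interaction −1.53, SE 0.25, adjusted p = 0.0441). UBI4, the polyubiquitin gene used under stress, was 1.63-fold higher with salt and 3.63-fold higher without (interaction −1.15, SE 0.16, adjusted p = 0.0303). RTC3 and SOL4 were not well above background in WT without salt, so their values there are bounds. RTC3 rose 72.1-fold in htz1D and at least 260-fold in WT, and its fitted interaction was −2.95 (adjusted p = 0.00705). With WT no salt set at the bound it was −1.85, which was not tested. SOL4, a 6-phosphogluconolactonase of the pentose phosphate pathway, rose 68.1-fold in htz1D and at least 119-fold in WT, with a fitted interaction of −1.62 (adjusted p = 0.0187) and an untested −0.80 at the bound.

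NQM1 (YGR043C), a transaldolase of stressed cells, crossed over. It was at 3.12 and 3.03 in htz1D with salt, −2.90 and −2.37 in htz1D without, 4.04 and 3.76 in WT with salt and −3.73 and −3.82 in WT without. The htz1D arrays were above WT before salt, by 2.2-fold, and below it after salt, by 1.78-fold. Salt raised it 52.2-fold in htz1D and 204-fold in WT, an interaction of −1.97 (SE 0.26, adjusted p = 0.0237).

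These single calls differ in how often they passed when 1 array was left out. Such a fit has less power, so a lost pass does not show that a call rests on 1 array. In the 8 fits that leave out an array, HXK1 and TMA10 passed 8 times, GLK1 4 times, NQM1 and SOL4 3 times, HSP12, GPP2, GSY1 and UBI4 1 time, and PNC1, EMI2 and YOR289W 0 times. Their interactions stayed negative in all of them, between −2.80 and −2.56 for HXK1, −1.86 and −1.51 for HSP12 and −1.63 and −1.34 for GPP2. In the authors' values HXK1 (−2.15), TMA10 (−2.12), NQM1 (−1.48), GPP2 (−1.16), UBI4 (−1.16), HSP12 (−1.09) and RTC3 (−1.02) also passed.

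**Figure D2:**
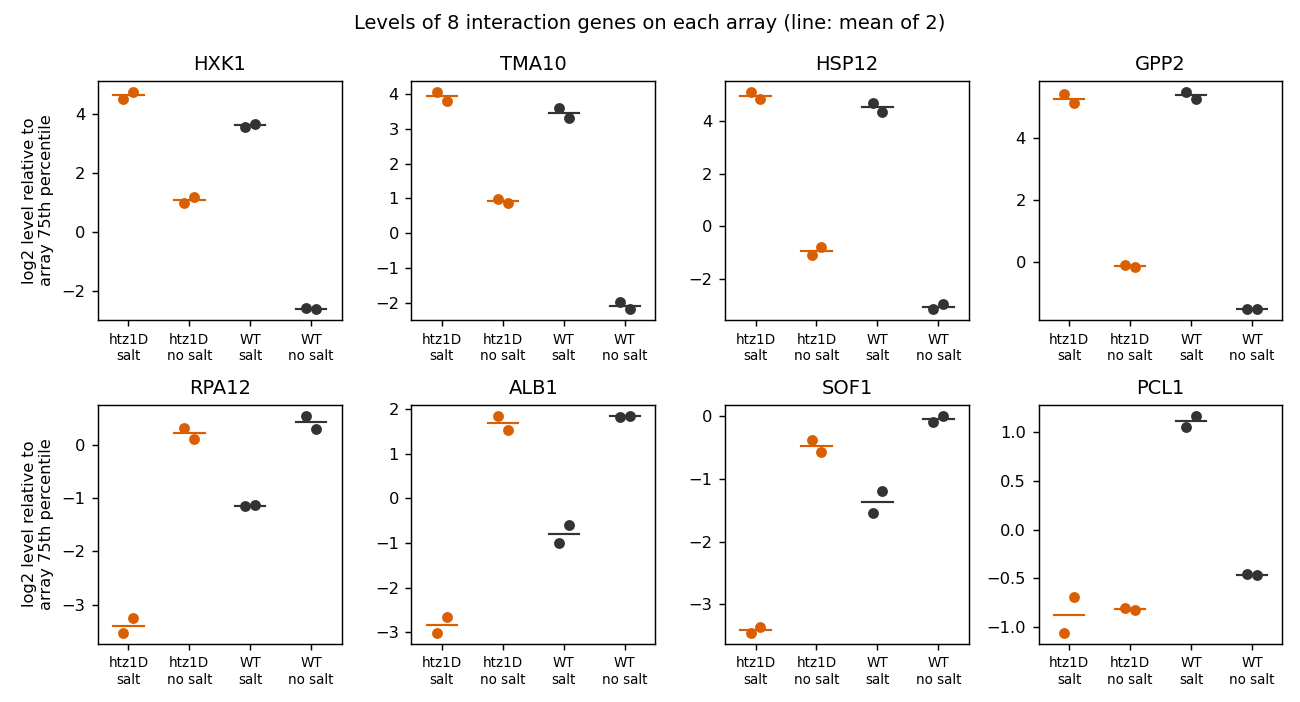
Levels of 8 interaction genes on each array, as log2 relative to the array's 75th percentile; points are the 2 arrays of a group and the line is their mean, with htz1D in orange and WT in black. The top row shows genes whose WT no-salt arrays are lowest, and the bottom row genes whose htz1D salt arrays are lowest, except that in PCL1 both htz1D groups lie low.

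Of 60 Msn2 and Msn4 general stress genes, 36 were higher in htz1D with salt and 46 without, 32 of them in both conditions, and 0 were lower. Without WT salt replicate 2 the count with salt was 19, without htz1D salt replicate 1 or 2 it was 18 or 21, and after normexp correction 17. The count without salt was 30 without WT no-salt replicate 2 and 30 after normexp correction. Over all genes 5.77% were higher with salt and 7.36% without. The median strain difference of the list was 0.69 with salt and 1.10 without, or 0.84 without salt when 10 members with a group below background were set at their bound. Over all genes 0.890% had a negative interaction past the test. The interaction passed in 8 of the 60 (13.3%), all negative: HXK1, TMA10, RTC3, HSP12, GLK1, SOL4, PNC1 and UBI4. That count was 3 without either WT no-salt array or without htz1D salt replicate 1, 4 without WT salt replicate 2 or htz1D salt replicate 2, and 5 without htz1D no-salt replicate 2. The median interaction was −0.45, against −0.07 over all tested genes, and it was −0.25 in the authors' values.

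The 38 genes linked to Hog1 and osmostress gave a mixed picture. Of these, 4 (10.5%) had a negative interaction (GPP2, HSP12, NQM1 and RTC3) and 0 a positive one, against 0.890% negative over all genes. The median interaction was −0.02, and it was 0.08 in the authors' values and with each array centred on its median. Of the 38, 10 were higher in htz1D with salt and 1 lower, and 13 were higher without salt and 0 lower, against 5.77% higher with salt and 7.36% without over all genes. The 10 became 2 without WT salt replicate 2 and 4 without either htz1D salt array, and the 13 became 8 without either WT no-salt array. The 4 negative interactions became 1 without either WT no-salt array, either htz1D salt array or WT salt replicate 2, and 2 without either htz1D no-salt array. GPD1, the first enzyme of glycerol synthesis, was at 6.15 and 6.01 in htz1D with salt, 1.77 and 1.80 in htz1D without, 5.96 and 5.63 in WT with salt and 1.07 and 1.11 in WT without. Its strain difference passed without salt (1.61-fold higher in htz1D, adjusted p = 0.0191), and its interaction of −0.41 (SE 0.19, adjusted p = 0.477) did not.

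Several strongly induced genes did not pass the interaction test. CTT1, the cytosolic catalase, had an interaction of 0.52 (SE 0.27), ALD3, an aldehyde dehydrogenase, of −0.02 (SE 0.29), and ENA1, a sodium pump, of 0.32 (SE 0.26). STL1, the glycerol symporter, was not well above background without salt in either strain and rose at least 446-fold in htz1D and at least 307-fold in WT. With SEs of this size and 2 arrays a group, small interactions were not detectable. For the paralogs of genes described above, named after their values were seen, the interactions were 0.12 for GPP1, 0.07 for TAL1 (paralog of NQM1), −0.09 for SOL3 (paralog of SOL4) and −0.64 for GSY2, and none passed. Paralogs may share probe signal, and no pair was tested against each other.

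Of the 23 genes that differed between strains with salt only, 12 are on a ribosome assembly or polymerase list. Those lists hold 148 and 25 of the 5394 genes tested. Salt gave a larger fall in htz1D for 22 of the 23, all 12 among them. Without salt 22 of the 23 were also below WT in htz1D, by amounts that did not pass, with a median difference of −0.33 and a range of −0.68 to 0.20. RPA12 (YJR063W), a small subunit of RNA polymerase I, was at −3.53 and −3.26 in htz1D with salt, 0.32 and 0.12 in htz1D without, −1.15 and −1.13 in WT with salt and 0.56 and 0.30 in WT without. Before salt the strains overlapped, and after salt both htz1D arrays lay far below both WT arrays. Salt lowered RPA12 12.3-fold in htz1D and 2.97-fold in WT, an interaction of −2.05 (SE 0.21, adjusted p = 0.00947). With salt it was 4.78-fold lower in htz1D, and without salt the strain difference was −0.21 and did not pass.

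ALB1 (YJL122W), a factor that shuttles with the large ribosomal subunit precursor, was at −3.01 and −2.65 in htz1D with salt, 1.85 and 1.52 in htz1D without, −0.99 and −0.59 in WT with salt and 1.81 and 1.85 in WT without. The unstressed arrays of the strains touched, and the salt arrays did not. Its fall was 22.8-fold in htz1D and 6.14-fold in WT, an interaction of −1.90 (SE 0.27, adjusted p = 0.0303). SOF1 (YLL011W), a component of the small-subunit processome that folds and cuts early rRNA, was at −3.45 and −3.36 in htz1D with salt, −0.39 and −0.58 in htz1D without, −1.55 and −1.19 in WT with salt and −0.09 and 0.00 in WT without. Its htz1D salt arrays were the lowest. Before salt the arrays of the strains did not overlap, and the difference of −0.44 did not pass. SOF1 fell 7.56-fold in htz1D and 2.51-fold in WT, an interaction of −1.59 (SE 0.21, adjusted p = 0.0231).

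Further genes of the small-subunit processome with a negative interaction were UTP13 (−1.72, SE 0.29, adjusted p = 0.0485), UTP11 (−1.47, SE 0.18, adjusted p = 0.0196) and FCF2 (−1.28, SE 0.20, adjusted p = 0.0394). With salt they were 5.28-fold, 3.68-fold and 2.57-fold lower in htz1D. IMP3 and RRP36, of the same particle, were not well above background in htz1D with salt. IMP3 fell at least 6.79-fold in htz1D and 4.48-fold in WT, with a fitted interaction of −2.30 (adjusted p = 0.00947) and an untested −0.60 at the bound. RRP36 fell at least 11.7-fold in htz1D and 4.48-fold in WT, with a fitted interaction of −1.93 (adjusted p = 0.00947) and an untested −1.39 at the bound.

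On the large-subunit side, NIP7, needed for 60S assembly, had an interaction of −1.42 (SE 0.23, adjusted p = 0.0441) and RRP15 of −1.16 (SE 0.19, adjusted p = 0.0469). NHP2 (YDL208W), a core protein of the H/ACA particles that guide pseudouridylation, was at 0.39 and 0.44 in htz1D with salt, 3.78 and 3.46 in htz1D without, 1.36 and 1.54 in WT with salt and 3.42 and 3.42 in WT without. Its unstressed level in htz1D was at or above that of WT, and its level after salt was 2.04-fold lower (interaction −1.23, SE 0.20, adjusted p = 0.0429). RPC25, a subunit of RNA polymerase III, started at levels within 0.03 of each other on average and was 2.69-fold lower in htz1D after salt (interaction −1.40, SE 0.18, adjusted p = 0.0231). REX4, a putative RNA exonuclease of rRNA processing, had an interaction of −1.57 (SE 0.23, adjusted p = 0.032).

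Leaving out 1 array, which also lowers power, ended many of these calls. RPA12 passed in 7 of the 8 such fits, UTP11 in 3, RPC25 and NHP2 in 2, ALB1, SOF1, UTP13, REX4, NIP7 and RRP15 in 1, and FCF2 in 0. The interactions stayed negative throughout, between −2.18 and −1.91 for RPA12, −2.10 and −1.69 for ALB1 and −1.77 and −1.41 for SOF1. In the authors' values ALB1 (−1.21) and NHP2 (−1.11) passed, while RPA12 at −0.99 and SOF1 at −0.76 did not.

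The ribosome assembly genes make up 148 tested genes of 3 lists. All 148 fell under salt in both strains, with a median salt response of −2.76 in htz1D and −2.16 in WT on the log2 scale. With salt 106 of the 148 (71.6%) were lower in htz1D than in WT and 0 higher, against 16.2% lower over all genes. Without salt 8 (5.41%) were lower, against 6.32% over all genes, all 8 of them also lower with salt. The count without salt was 25 in the authors' values and 16 with arrays levelled along coding length, 0 after normexp correction and 0 without either WT no-salt array. The interaction was below 0 in 131 of the 148 (88.5%), against 62.2% of all tested genes, and its median was −0.56, against −0.07. On their own 10 members (6.76%) passed the interaction test, all negative, against 0.890% with a negative call over all genes. They were IMP3, RRP36, ALB1, UTP13, SOF1, UTP11, NIP7, FCF2, NHP2 and RRP15.

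These values moved with the processing. The median interaction was −0.39 with quantile scaling, −0.46 with each array centred on its median, −0.49 after normexp correction, where the median of all genes moved to −0.21, and −0.17 in the authors' values. The number lower in htz1D with salt was between 64 and 115 in those settings, the other alternatives and the fits without 1 array. Without WT salt replicate 1, 30 members had a negative interaction past the test, against 2 without WT salt replicate 2 and 0 without htz1D salt replicate 1.

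**Figure D3:**
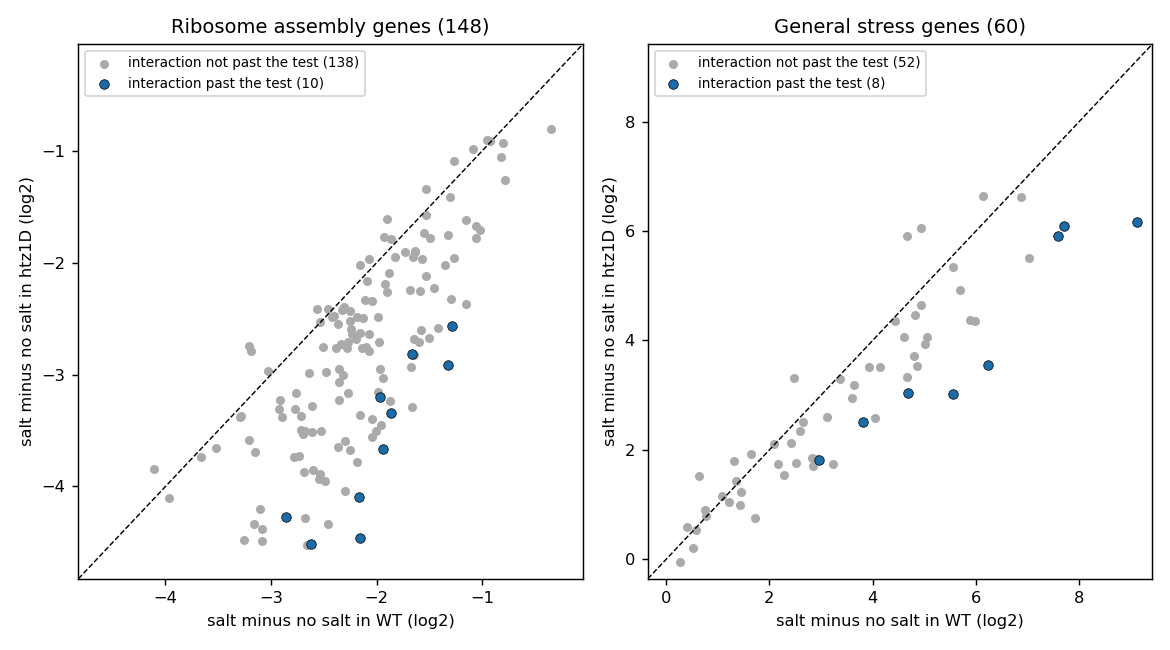
Salt response in log2 of the WT strain across and of the htz1D strain up the page, for 148 ribosome assembly genes on the left and 60 general stress genes on the right. Points below the dashed line of equal response have a negative interaction, as 131 of the 148 ribosome assembly genes do, and blue points passed the interaction test.

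By particle, the median strain difference with salt was −0.95 for 66 genes of the small-subunit processome and 40S assembly, −0.82 for 71 genes of 60S assembly and −0.63 for 11 core snoRNP genes. Without salt the medians were −0.37, −0.28 and −0.15. Members lower in htz1D with salt numbered 49, 50 and 7 in that order, and 3, 5 and 0 without salt. Of 25 subunits and factors of RNA polymerases I and III, 19 were lower with salt and 4 without, against 16.2% and 6.32% over all genes. The 19 became 12 without WT salt replicate 2 or htz1D salt replicate 1, and the 4 became 0 without either WT no-salt array and 2 without any 1 of the WT salt or htz1D no-salt arrays. Of the 25, RPA12 and RPC25 passed the interaction test. Of the largest subunits of RNA polymerase I, named after their values were seen, RPA190 had an interaction of 0.41 (SE 0.35) and RPA135 of 0.16 (SE 0.23), and neither passed. The median interaction of the 25 was −0.47, or −0.065 in the authors' values. The 137 genes of cytosolic ribosomal proteins tested had a median interaction of −0.02, which was 0.08 with each array centred on its median and 0.06 after normexp correction, with 0 calls, and 6 were lower in htz1D with salt.

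Gene length moved with these results. The 23 genes that differed after salt only had a median coding length of 654 bases and the 14 that differed at the start level 712.5, against 1264.5 over all tested genes with a length. Of the 10 ribosome assembly genes that passed, 8 lay in the shortest 38 of that list, from 177 to 951 bases. With the list cut by length into 4 groups, shortest to longest, the median interaction was −0.70, −0.57, −0.50 and −0.42, while 27, 27, 26 and 26 members were lower in htz1D with salt. On the arrays, with tested genes cut by length into 5 groups, the median level of the shortest group lay above that of the longest by 0.563 and 0.303 in htz1D with salt, 0.96 and 0.358 in htz1D without, 0.485 and 0.226 in WT with salt and 0.523 and 0.293 in WT without. With each array levelled along coding length, an alternative chosen after seeing the data, 106 genes passed, 53 of the 54 among them, and 17 ribosome assembly genes had a negative interaction with a median of −0.56.

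Outside the ribosome lists, PCL1 (YNL289W) was the gene of the G1/S list that passed the interaction test. It encodes a cyclin of the kinase Pho85. Its levels were −1.06 and −0.69 in htz1D with salt, −0.80 and −0.82 in htz1D without, 1.05 and 1.17 in WT with salt and −0.46 and −0.47 in WT without. The WT salt arrays stood alone above the other 6, and both htz1D groups lay together. Salt raised PCL1 2.97-fold in WT, and its change in htz1D of −0.06 did not pass, an interaction of −1.63 (SE 0.20, adjusted p = 0.0196) that passed in 2 of the 8 fits without 1 array and in the authors' values (−1.56).

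Other cyclins were looked at after their values were seen. CLN1, a G1 cyclin, was 2.51-fold lower in htz1D with salt and 1.51-fold lower without, and its interaction of −0.74 (SE 0.18) did not pass. CLN2 had an interaction of −1.11 (SE 0.43, adjusted p = 0.357) and PCL2, close to PCL1, of −0.94 (SE 0.18, adjusted p = 0.0665). PCL2 was not well above background in WT without salt, and was so on 1 htz1D array without salt. Its untested interaction at the bound was −0.78. Over the 45 G1/S genes tested, 24 were lower in htz1D with salt and 7 without, 6 of them in both, against 16.2% and 6.32% lower over all genes, and 41 (91.1%) had an interaction below 0, against 62.2%. The 24 became 13 without WT salt replicate 2, 14 without either htz1D salt array and 6 after normexp correction, and the 7 became 0 without either WT no-salt array. The median interaction was −0.40, or −0.14 in the authors' values, and PCL1 was the only member to pass.

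NNF1, a kinetochore protein, DUS1, a tRNA dihydrouridine synthase, and YML082W were lower in htz1D in both conditions and fell further under salt. NNF1 was 4.44-fold lower with salt and 1.71-fold lower without (interaction −1.38, SE 0.22, adjusted p = 0.0428). DUS1 was 3.6-fold lower with salt and 1.52-fold lower without (interaction −1.24, SE 0.20, adjusted p = 0.0441), and YML082W 3.8-fold and 1.61-fold lower (interaction −1.24, SE 0.19, adjusted p = 0.0428). Each passed in 1 of the 8 fits without 1 array. IRC19, named after its values were seen, was 4.29-fold lower in htz1D with salt and 1.98-fold lower without, and passed in 0 of them (interaction −1.11, SE 0.17, adjusted p = 0.0371).

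Opposite salt responses appeared in ATF1 (YOR377W), an alcohol acetyltransferase that makes acetate esters, and in YGR073C. ATF1 was at −0.56 and −0.53 in htz1D with salt, −1.07 and −0.91 in htz1D without, −0.90 and −1.05 in WT with salt and −0.18 and −0.21 in WT without. It rose 1.36-fold in htz1D and fell 1.72-fold in WT, so the order of the strains turned round, with an interaction of 1.23 (SE 0.16, adjusted p = 0.0231) that passed in 2 of the 8 fits. YGR073C was at −3.89 and −3.70 in htz1D with salt, −2.81 and −2.88 in htz1D without, −2.96 and −3.06 in WT with salt and −3.72 and −3.95 in WT without. It fell 1.93-fold in htz1D and rose 1.77-fold in WT, with an interaction of −1.77 (SE 0.18, adjusted p = 0.00947) that passed in 7.

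The other 5 positive interactions, named here because they are so few and after their values were seen, were all in genes not well above background in htz1D without salt. YNL195C was at 0.92 and 0.68 in htz1D with salt, −5.37 and −5.09 in htz1D without, −0.22 and −0.58 in WT with salt and −4.13 and −3.85 in WT without. It rose at least 45.9-fold in htz1D and 12.1-fold in WT, with a fitted interaction of 2.44 (SE 0.26, adjusted p = 0.00965) and an untested 1.93 at the bound. At their bounds the interactions, not tested, were 1.15 for YKL162C, 0.50 for GUP2, a gene of the glycerol list, and 0.20 for MCO32. YHR022C was not well above background in WT without salt either, so its interaction has no bound. After normexp correction GUP2, MCO32 and YHR022C had interactions of −0.36, −0.67 and −0.0032, so their direction was not kept in that setting. The setting also used median signals in place of processed intensity and added an offset. Which of these changes turned the sign was not tested. The interaction of YKL162C went from 1.34 to 0.035 after normexp correction, and that of YNL195C from 2.44 to 1.07.

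Lists outside these groups held few or no interaction calls. The median interaction was −0.23 for 34 proteasome genes, 33 of them below 0, and −0.24 for 27 genes of the iron regulon, with 0 calls in both. Of the iron genes 10 were higher in htz1D with salt and 12 without, 8 of them in both conditions, against 5.77% and 7.36% over all genes. The 10 became 3 without WT salt replicate 1 or either htz1D salt array and 4 without WT salt replicate 2, and the 12 became 6 without WT no-salt replicate 1. Of 22 trehalose and glycogen genes 10 were higher in htz1D in each condition and 1 was lower with salt, and the 10 with salt became 4 without WT salt replicate 2 or htz1D salt replicate 2. GSY1 alone passed the interaction test. Subunits of SWR1, the complex that deposits H2A.Z, numbered 13 and had a median interaction of −0.05 with 0 calls.

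**Figure D4:**
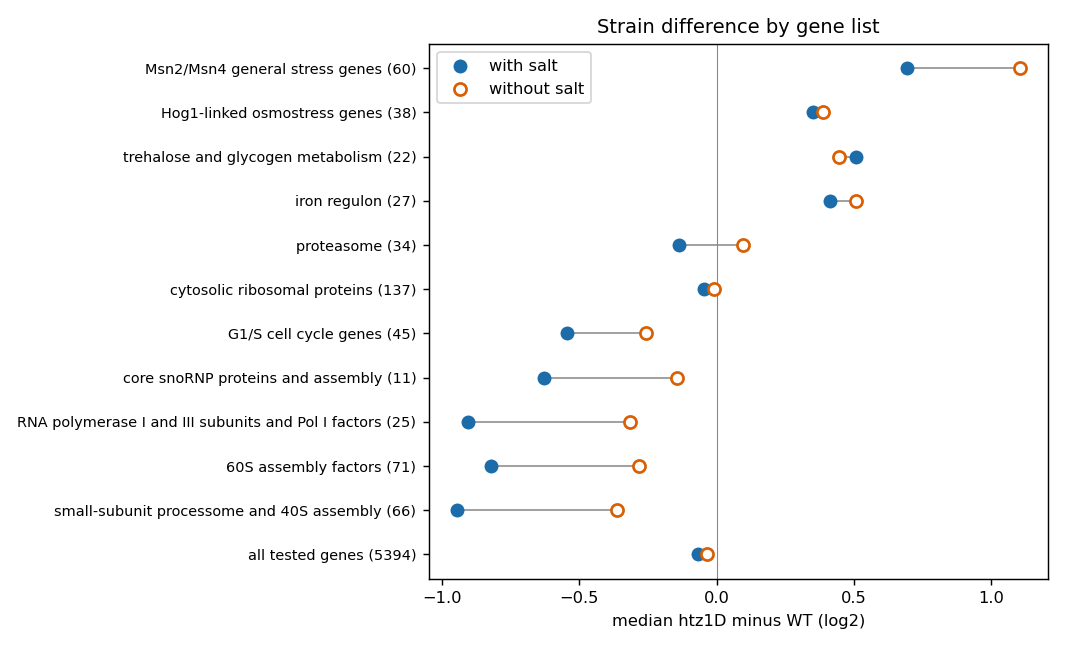
Median htz1D minus WT difference in log2, with salt and without salt, for 11 gene lists and for all tested genes. The small-subunit processome and 40S assembly list lies at −0.95 with salt and −0.37 without, and the general stress list stays above 0 in both conditions.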

How the data were processed

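RNA of 8 samples was hybridised to 1-colour Agilent yeast arrays. The sample titles do not say whether salt and no-salt samples came from the same cultures. The deposited scanner files hold spot intensity values made with Agilent Feature Extraction 10.7.3.1 on build sacCer2, per the file headers. The authors' deposited table holds log2 values of 6187 probes (column medians 10.55 to 10.57), and the sources used here do not give their normalization; limma is named in the submitters' processing notes. Each array's table column correlated with its own raw signal at 0.987 to 0.997, and 7 of 8 matched their own array best. The column that did not was that of WT salt replicate 2 (r 0.987), so the authors' values are less certain for the WT salt group. The 75th percentile of processed signal was 2740 to 4290, and 82.2% to 88.9% of probes were well above background, with 0 saturated and 86 outlier spots.

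Processed intensity was divided by the array's 75th percentile, converted to log2 and averaged over unflagged spots of a probe. Genes entered the test when their brightest probe passed the scanner's well-above-background flag on each array of 1 group or more. A fit of 4 group means used limma 3.58.1 in R 4.3.3 with eBayes, and calls had a Benjamini-Hochberg adjusted p under 0.05 over 5394 genes. The procedure was tested on simulated data, but the outcome is not reported here and no error rate is drawn from it. P-values rest on the spread between the 2 cultures of a group, pooled over the 4 groups (4 residual degrees of freedom). By eBayes that spread was moderated with the spread of other genes (3.35 prior degrees of freedom). Where a group was not well above background on both arrays, folds are bounds against the lowest signal well above background on each array, written as "at least".

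Genes named were the 6 largest interactions in each class and direction and the 4 largest in each list, among called genes well above background on all 8 arrays, plus 8 osmostress genes (GPD1, GPP2, STL1, CTT1, HSP12, ENA1, ALD3 and HXK1) and HTZ1 with its neighbours. Dim genes are named inside their list with bounds. UBI4, well above background on all 8 arrays, was named outside these rules. The comparison, the members and the lists were chosen with earlier results of these data known. Gene names, order and coding lengths came from an R64 gene table that matched 5750 probes and not 506. Normexp (offset 50) used median signals, since mean signals were not used here. Promoters were not analysed here.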

Additional observations from a re-analysis of the deposited data

Results flagged for a closer look

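In 54 genes the salt response differed between htz1D and WT by the test of the difference itself, the interaction in limma. Among the genes named by rule, those with a smaller rise in htz1D had log2 interactions of −2.68 (HXK1), −2.53 (TMA10), −1.97 (NQM1), −1.69 (HSP12), −1.65 (GLK1), −1.53 (YOR289W), −1.49 (GPP2), −1.30 (PNC1), −1.11 (GSY1) and −0.93 (EMI2). Those with a larger fall in htz1D had −2.05 (RPA12), −1.90 (ALB1), −1.72 (UTP13), −1.59 (SOF1), −1.57 (REX4), −1.47 (UTP11), −1.42 (NIP7), −1.40 (RPC25), −1.38 (NNF1), −1.28 (FCF2), −1.24 (DUS1), −1.24 (YML082W), −1.23 (NHP2) and −1.16 (RRP15). PCL1, which rose in WT, had −1.63, and the genes with opposite responses had −1.77 (YGR073C) and 1.23 (ATF1).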

How the results depend on the processing

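The 54 interactions kept their sign in every alternative in which they had a value, except GUP2 (−0.36), MCO32 (−0.67) and YHR022C (−0.0032) after normexp correction; the cause was not tested. Counts moved more, given here as genes with an interaction, positive, negative, start level, level after salt and both. Quantile scaling gave 40 genes, with 12 after salt. Median centring gave 32, with 6 positive, 26 negative, 5, 12 and 15. Normexp gave 1, with 0 positive, 1 negative, 0, 0 and 1, and moved the median interaction of all genes to −0.208. The authors' values gave 19, with 6, 13, 4, 5 and 10. No filter on dim probes gave 14, with 2, 12, 3, 5 and 6. Probes well above background on all 8 arrays gave 55, with 2 positive and 8 start level. Trended robust moderation gave 81, with 73 negative, 36 after salt and 31 in both. Levelling along coding length, chosen after seeing the data, gave 106, with 13, 93, 18, 37 and 51. Classes by size gave 22 at the start level. Fits without 1 array gave 4 to 102 genes, 0 to 34 positive, 4 to 68 negative, 2 to 11 start level, 1 to 71 after salt and 1 to 20 in both. Dim signal limits 14 of the 54 genes, in which a group was not well above background on both arrays.

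Same-numbered arrays deviated together (r of deviations 0.176 to 0.422 over 6 pairs of groups), but with 2 numbers and no label for a shared day the samples share only a number. The replicate block gave 141 genes, 18 positive, 123 negative, 28 start level, 51 after salt and 62 in both, with all 54 among them.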

Other observations

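Some interaction genes lay close together, with values and no test. RRP36 and YOR289W on chromosome XV have 1 protein-coding gene between them, with interactions of −1.93 and −1.53, but salt lowered RRP36 and raised YOR289W in both strains. YNL162W-A and IBD2 on chromosome XIV have 1 between them, with −1.79 and −1.27, and DUS1 and YML082W on chromosome XIII have 2 between them, with −1.24 and −1.24. RRP36 and YNL162W-A were not well above background in htz1D with salt, and their untested interactions at the bound were −1.39 and −0.47. In WT with salt YNL162W-A was well above background on 1 of 2 arrays. The neighbours of HTZ1, which were HRD1, PLB3, YOL014W and RCL1, had interactions of −0.20, −0.07, 0.56 and −1.37, and none passed. RCL1 was 3.06-fold lower in htz1D with salt, which passed, and was well above background on 1 of 2 arrays there. No other strain difference of these neighbours passed in either condition. Among 217 tested genes of the outermost 10 on each chromosome arm, HXK1 alone passed. In that set 14 (6.45%) were higher and 34 (15.7%) lower in htz1D with salt, against 5.77% and 16.2% over all genes. Without salt 28 (12.9%) were higher and 32 (14.7%) lower, against 7.36% and 6.32% over all genes. Genes on none of the lists made up 29 of the 54, among them RRT14 (−2.20), CPP3 and INH1 (−1.98), an inhibitor of the mitochondrial ATPase. WT no salt was well above background on 1 of 2 arrays for CPP3 and INH1, and htz1D salt on 1 of 2 for RRT14.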
